A study of Homo sapiens with 6 samples.

Results

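The 10 genes described here encode plasma membrane proteins that carry amino acids into or out of the cell or, for *SLC3A2*, bind such carriers. They are *SLC7A11*, *SLC7A5*, *SLC7A6*, *SLC3A2*, *SLC7A1*, *SLC1A4*, *SLC1A5*, *SLC38A1*, *SLC38A2* and *SLC6A9*, and they were found by gene symbol among the 46427 genes of the count table. All 10 were found and all 10 were among the 18366 genes that passed the expression filter. RNA was sequenced from parental HCT116 cells, a human colon carcinoma line (*ZK3*-WT), and from *ZK3*-KO cells. The latter are the same line after CRISPR/Cas9 targeting of the first exon of *ZKSCAN3*, with both alleles mutated. *ZKSCAN3* encodes a zinc finger transcription factor. Each genotype had 3 libraries, and all cells were kept in DMEM with fetal bovine serum and no further treatment is named. The *ZK3*-KO cells were selected with puromycin and grown from a single cell, so the edit and the properties of that clone cannot be told apart. The question addressed was whether transcripts of the transporters differed between the genotypes.

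Amino acids enter the cell through transporters with overlapping substrates. *SLC3A2* encodes a heavy chain that binds several light chains and takes them to the cell surface, among them SLC7A11, which imports cystine in exchange for glutamate, SLC7A5, which imports large neutral amino acids, and SLC7A6, which exchanges cationic for neutral amino acids. Many of these genes are known targets of ATF4, a transcription factor whose translation rises when amino acids are scarce and which acts at elements near its target genes.

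Between 60827060 and 68635701 reads were counted per *ZK3*-WT library and between 63581292 and 69739215 per *ZK3*-KO library. *ZK3*-KO replicate 3 stood apart from the other *ZK3*-KO libraries. Across genes, its log2 CPM correlated with *ZK3*-KO replicates 1 and 2 at 0.963 and 0.950, whereas replicates 1 and 2 correlated with each other at 0.985 and the *ZK3*-WT replicates at between 0.983 and 0.989. *ZK3*-KO replicate 3 correlated with *ZK3*-WT replicates 1, 2 and 3 at 0.952, 0.952 and 0.965. Its normalization factor was 0.910, against 0.994 to 1.03 in the other libraries. Results are therefore given with and without it. Of 8 colon epithelial markers, 6 were present at 10 CPM or more in every library, and *CEACAM5* and *LGALS4* were below 1 CPM everywhere. Their summed level ranged from 2950.0 to 3742 CPM in *ZK3*-WT and from 2740.2 to 5448 CPM in *ZK3*-KO libraries, with *ZK3*-KO replicate 3 highest for all 6 tested markers. The part of these differences in the results was not tested. Below 1 CPM everywhere were 5 of 6 fibroblast, 5 of 6 leukocyte and 2 of 4 endothelial markers, and the 4 endothelial markers summed to between 0.851 and 2.4997 CPM. The remaining leukocyte marker, *CD68*, had 1.69 to 10.1 CPM. The remaining fibroblast marker, the collagen gene *COL1A1*, stood at 52.5, 44.2 and 56.3 CPM in *ZK3*-WT and at 49.7, 32.2 and 98.8 CPM in *ZK3*-KO libraries, lowest in *ZK3*-KO replicate 2 and highest in *ZK3*-KO replicate 3, and its part in the results was not tested. *ZKSCAN3* transcripts had a log2 fold change of -0.16 (SE 0.27, FDR 0.797 from edgeR's quasi-likelihood test). Counts per gene do not show how the sequence of the first exon was changed.

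With all 6 libraries, 0 of the 10 transporter genes passed edgeR's quasi-likelihood test at a false discovery rate (FDR) of 0.05, where 2.05% of all tested genes passed. *SLC7A11* alone had an unadjusted p-value under 0.05, a threshold passed by 18.4% of tested genes. It was also the only one of the 10 whose genotypes did not overlap, as was the case for 26.6% of tested genes and, with *ZK3*-KO below *ZK3*-WT, for 13.8%. The log2 fold change was below 0 for 8 of the 10 genes and for 48.3% of all tested genes, with medians of -0.30 over the 10 genes and 0.02 over all. The number below 0 was 9 with library totals alone, 10 with the replicate number as a block and 10 on log2(TPM + 1). The median of all genes moved by -0.083, -0.031 and -0.10 in these fits. The number below 0 was 10 without *ZK3*-WT replicate 1, 6 without *ZK3*-KO replicate 1 and 7 without *ZK3*-KO replicate 2. DESeq2, which called 8.2% of tested genes, also called 0 of the 10. In bulk RNA, fewer cells with a transcript and less of it per cell cannot be told apart. Levels below are TMM-normalised counts scaled to library size (CPM) unless TPM is named, are listed by library in the order of replicates 1, 2 and 3, and fold changes are *ZK3*-KO over *ZK3*-WT on the log2 scale.

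**Figure D1:**
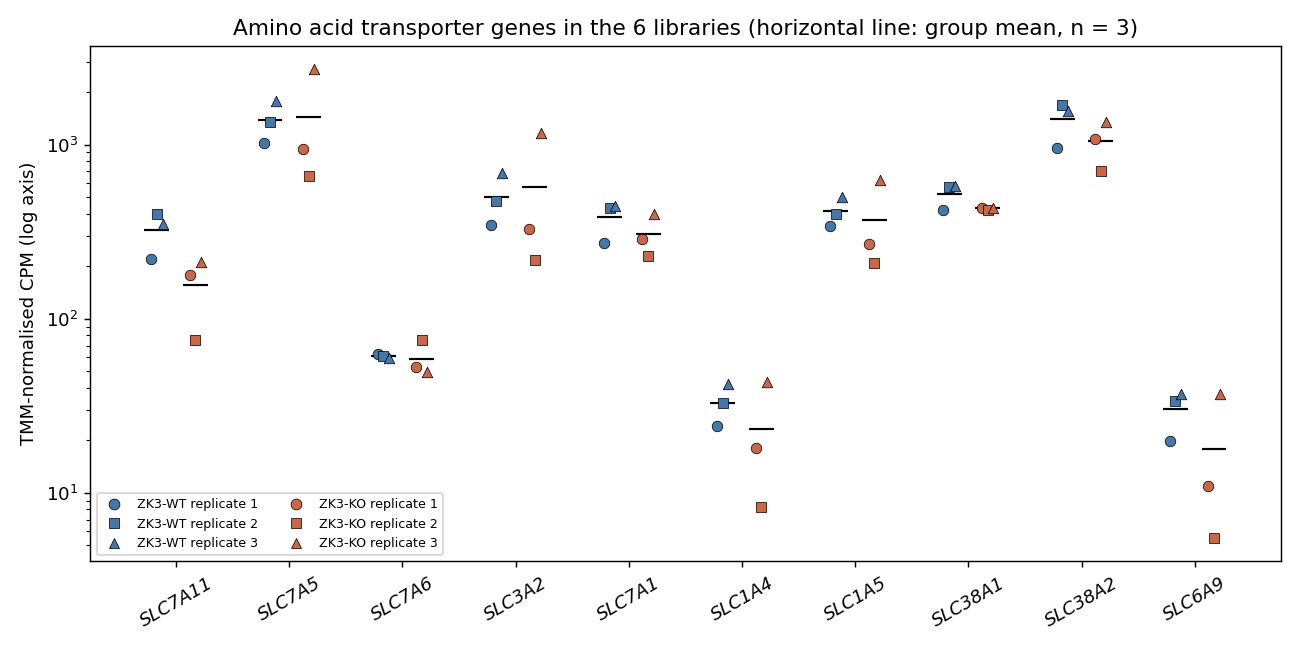
CPM of each of the 10 transporter genes (log axis) in each library, with *ZK3*-WT in blue, *ZK3*-KO in orange, a symbol for each replicate number and a line at the mean of each group of 3. The *ZK3*-KO points lie below all *ZK3*-WT points for *SLC7A11* alone, and *ZK3*-KO replicate 3 is the highest library for 5 genes.

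The cystine importer *SLC7A11* (NCBI Gene 23657, GRCh37 chromosome 4, 139085251 to 139163503, reverse strand) had levels of 221, 397 and 349 CPM in *ZK3*-WT libraries. Its levels in *ZK3*-KO libraries were 178, 75.2 and 212 CPM. Every *ZK3*-KO library was thus below every *ZK3*-WT library, although the gap between *ZK3*-WT replicate 1 and *ZK3*-KO replicate 3 was small. The means were 322 ± 90.6 and 155 ± 71.3 CPM (SD, n = 3). The log2 fold change was -1.05 (SE 0.39, FDR 0.219 from edgeR's quasi-likelihood test), with a range of 2 SE from -1.84 to -0.27. The difference did not pass the threshold with all 6 libraries, and it passed without *ZK3*-KO replicate 3 (-1.34, SE 0.36, FDR 0.0380 in edgeR's test). With the replicate number as a block it was -1.12 (FDR 0.179 in edgeR's test), and the DESeq2 FDR was 0.0830. *SLC7A11* was the only one of the 10 that was lower in *ZK3*-KO cells within all 3 replicate numbers, by log2 differences of -0.31, -2.39 and -0.72, a pattern shown by 24.7% of tested genes.

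The heavy chain gene *SLC3A2* (NCBI Gene 6520, chromosome 11, 62623476 to 62656352, forward strand) stood at 346, 475 and 684 CPM in *ZK3*-WT libraries and at 327, 216 and 1169 CPM in *ZK3*-KO libraries. The groups overlapped fully, with 2 *ZK3*-KO libraries below and 1 above all *ZK3*-WT libraries. The log2 fold change was 0.19 (SE 0.60, FDR 0.904 in edgeR's test), and its sign turned without *ZK3*-KO replicate 3, to -0.89 (SE 0.28, FDR 0.0658). *SLC7A5* (NCBI Gene 8140, chromosome 16, 87863629 to 87903113, reverse strand), whose product imports leucine and other large neutral amino acids, had the same arrangement. Its levels were 1018, 1350.2 and 1780.1 CPM in *ZK3*-WT and 942, 657 and 2704 CPM in *ZK3*-KO cells. For *SLC7A5* the log2 fold change was 0.05 (SE 0.51, FDR 0.969 in edgeR's test) and without *ZK3*-KO replicate 3 it was -0.79 (FDR 0.0574). For neither gene was there a difference beyond the replicate spread, and the signs also turned with the replicate block (-0.15 for *SLC3A2* and -0.18 for *SLC7A5*) and on the log2(TPM + 1) scale (-0.30 and -0.32). A range of 2 SE reached from -1.02 to 1.39 for *SLC3A2* and from -0.97 to 1.07 for *SLC7A5*. Changes within these ranges, in either direction, were thus not excluded at this replicate spread.

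The third light chain, *SLC7A6* (NCBI Gene 9057, chromosome 16, 68298419 to 68335726, forward strand), hardly varied among *ZK3*-WT libraries. Its levels were 62.8, 61.3 and 59.2 CPM there and 52.6, 74.9 and 49.1 CPM in *ZK3*-KO libraries. *ZK3*-KO replicate 2 was its highest library, whereas that library was the lowest for 8 of the 10 genes (24.2% of tested genes). The log2 fold change was -0.05 (SE 0.19, FDR 0.909 in edgeR's test), and leaving out *ZK3*-KO replicate 3 gave 0.07 (FDR 0.818). *SLC7A6* shares a stretch of 3372 exonic bases with *SLC7A6OS* on the opposite strand, which had 1216 to 1960 reads per library. The strand setting of the counting is not given in the sources used here, so reads of the shared bases cannot be assigned with certainty. A pair of pseudogenes share sequence with *SLC7A5*, of which *SLC7A5P1* had at most 11 reads and *SLC7A5P2* 174 to 348 reads per library, against at least 45520 for *SLC7A5*.

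Light chain transcripts were set against those of the heavy chain within each library, as TPM, which is scaled for transcript length. *SLC7A11* TPM amounted to 13.1%, 17.1% and 10.3% of *SLC3A2* TPM in *ZK3*-WT libraries and to 11.4%, 7.47% and 3.63% of it in *ZK3*-KO libraries. The ranges overlapped through *ZK3*-WT replicate 3 and *ZK3*-KO replicate 1. The mean log2 ratio was -2.92 ± 0.365 in *ZK3*-WT and -3.89 ± 0.832 in *ZK3*-KO cells (SD, n = 3), a difference of -0.97 (two-sided exact permutation test p = 0.2, adjusted p = 0.6 over 3 ratios). The difference was -0.52 without *ZK3*-KO replicate 3 and -1.34 without *ZK3*-KO replicate 1. With 3 libraries against 3, the smallest p that this exact test allows is 0.1. *SLC7A5* TPM amounted to between 111% and 127% of *SLC3A2* TPM in *ZK3*-WT and between 97.7% and 138% in *ZK3*-KO libraries, with a difference in mean log2 ratio of -0.02 (exact permutation p = 0.9, adjusted p = 1). *SLC7A5* and *SLC3A2* thus kept a ratio near 1 while the highest *ZK3*-KO library exceeded the lowest 4.12-fold and 5.42-fold in CPM. *SLC7A6* TPM ranged from 2.94% to 5.77% of *SLC3A2* TPM in *ZK3*-WT and from 1.31% to 11.6% in *ZK3*-KO libraries, and the difference in mean log2 ratio was 0.07 (exact permutation p = 1, adjusted p = 1).

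**Figure D2:**
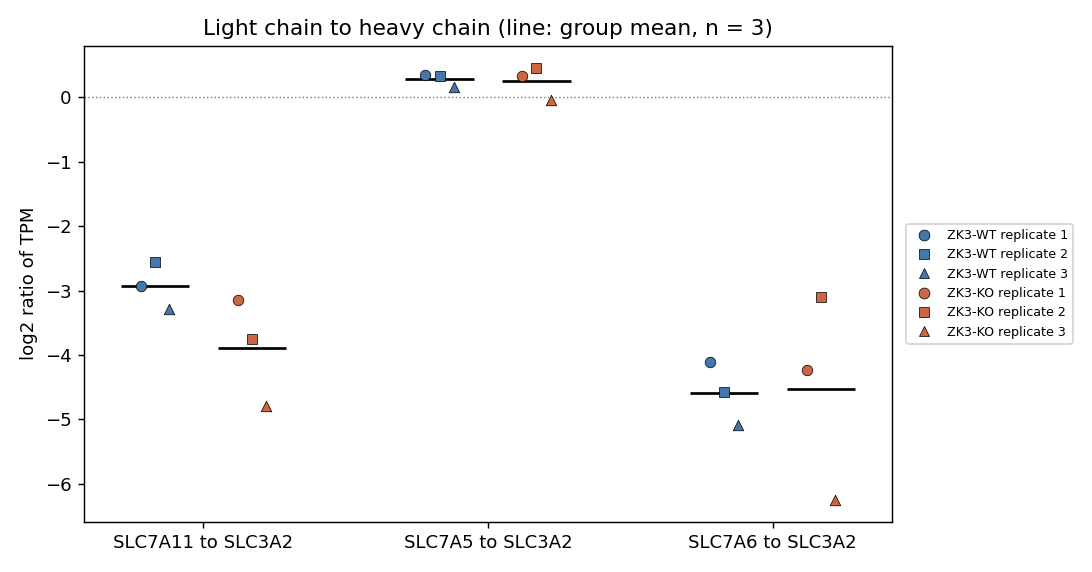
Log2 ratio of light chain TPM to *SLC3A2* TPM in each library, with *ZK3*-WT in blue, *ZK3*-KO in orange and lines at the means of 3 libraries. The *SLC7A5* ratio stays near 0 in all 6 libraries, and the *SLC7A11* ratio is lowest in *ZK3*-KO replicate 3, at 3.63%.

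The neutral amino acid exchanger genes of the SLC1 family and the glycine transporter gene varied widely among *ZK3*-KO libraries. *SLC1A5* (NCBI Gene 6510, chromosome 19, 47278140 to 47291851, reverse strand), which encodes a glutamine exchanger, stood at 341, 399 and 500.0 CPM in *ZK3*-WT and at 269, 208 and 629 CPM in *ZK3*-KO libraries. *SLC1A4* (NCBI Gene 6509, chromosome 2, 65215611 to 65250999, forward strand), which encodes an alanine, serine and cysteine exchanger, stood at 24.0, 32.7 and 41.9 CPM in *ZK3*-WT and at 18.1, 8.24 and 43.3 CPM in *ZK3*-KO cells. *SLC6A9* (NCBI Gene 6536, chromosome 1, 44457172 to 44497139, reverse strand), the gene of the glycine transporter, stood at 19.7, 33.5 and 37.0 CPM in *ZK3*-WT and at 10.96, 5.48 and 37.0 CPM in *ZK3*-KO cells. In all 3 genes, *ZK3*-KO replicates 1 and 2 lay below every *ZK3*-WT library and, in CPM, *ZK3*-KO replicate 3 lay at or above the highest. In TPM, *ZK3*-KO replicate 3 lay within the *ZK3*-WT range for *SLC1A4* (15.9 against 10.9 to 19.2 TPM) and *SLC6A9* (21.0 against 13.5 to 25.6 TPM). The highest *ZK3*-KO library exceeded the lowest 3.02-fold for *SLC1A5*, 5.26-fold for *SLC1A4* and 6.76-fold for *SLC6A9*. With all 6 libraries the log2 fold changes were -0.16 (SE 0.40, FDR 0.865), -0.50 (SE 0.54, FDR 0.671) and -0.75 (SE 0.64, FDR 0.576) in edgeR's test, all smaller than the replicate spread allows to be called. Without *ZK3*-KO replicate 3 all 3 genes passed the threshold, at -0.79 (SE 0.19, FDR 0.0267), -1.32 (SE 0.34, FDR 0.0329) and -1.87 (SE 0.35, FDR 0.0115 in edgeR's test). *SLC6A9* overlaps *CCDC24* on the opposite strand over a stretch of 219 exonic bases, and *CCDC24* had 620 to 901 reads per library. *SLC6A9* itself had 1238, 2346 and 2584 reads in *ZK3*-WT and 706, 380 and 2288 reads in *ZK3*-KO libraries. Here too, reads of the shared bases cannot be assigned with certainty.

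The remaining 3 genes varied less. *SLC7A1* (NCBI Gene 6541, chromosome 13, 30083551 to 30169825, reverse strand), which encodes a cationic amino acid transporter for arginine and lysine, had levels of 271, 429.7 and 446 CPM in *ZK3*-WT and 287, 229 and 399 CPM in *ZK3*-KO cells. *SLC38A2* (NCBI Gene 54407, chromosome 12, 46751971 to 46766556, reverse strand), a sodium-coupled transporter of small neutral amino acids, had levels of 953, 1692 and 1562 CPM in *ZK3*-WT and 1079.8, 707 and 1353 CPM in *ZK3*-KO cells. *SLC38A1* (NCBI Gene 81539, chromosome 12, 46576846 to 46663800, reverse strand), a related glutamine transporter, had levels of 418, 568 and 575 CPM in *ZK3*-WT and 433, 419.8 and 434 CPM in *ZK3*-KO cells. In each of these genes *ZK3*-WT replicate 1 lay within or just below the *ZK3*-KO range and the other *ZK3*-WT libraries above it. The log2 fold changes were -0.32 (SE 0.27, FDR 0.574), -0.42 (SE 0.30, FDR 0.508) and -0.28 (SE 0.17, FDR 0.438) in edgeR's test, and without *ZK3*-KO replicate 3 they were -0.56 (FDR 0.118), -0.65 (FDR 0.123) and -0.28 (FDR 0.266). None of the 3 passed in either case. *SLC38A1* was the steadiest of the 10 in *ZK3*-KO cells, where its highest library exceeded its lowest 1.03-fold.

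**Figure D3:**
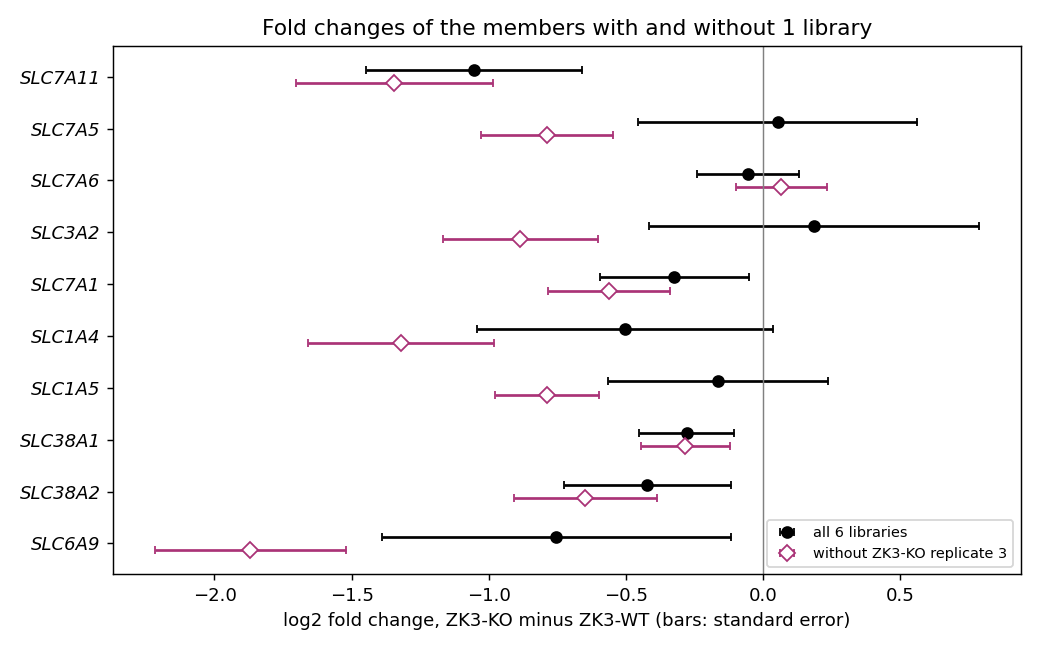
Log2 fold change of *ZK3*-KO over *ZK3*-WT with bars of 1 standard error for the 10 genes, from edgeR with all 6 libraries (filled) and without *ZK3*-KO replicate 3 (open). *SLC7A5* and *SLC3A2* move from just above 0 to -0.79 and -0.89, and *SLC38A1* stays at -0.28.

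Without *ZK3*-KO replicate 3, edgeR's test called 4 of the 10 genes, all of them lower in *ZK3*-KO cells (*SLC7A11*, *SLC1A4*, *SLC1A5* and *SLC6A9*). In that comparison 15.1% of all tested genes passed, and 7.73% passed as lower. The median log2 fold change was then -0.79 over the 10 genes and -0.02 over all genes, and 9 of the 10 were below 0, against 51.4% of all genes. The standard errors also shrank, with a median of 0.40 over the 10 genes with all libraries and 0.25 without that library, against 0.26 and 0.20 over all genes. Leaving out any other single library gave 0 calls among the 10 genes, as did all 6 libraries with the replicate number as a block. Across genes, deviations of *ZK3*-WT replicate 3 correlated with those of *ZK3*-KO replicate 3 at 0.449. *ZK3*-WT replicate 3 stayed in the comparison without *ZK3*-KO replicate 3. Within replicate numbers, 7 of the 10 genes were lower in *ZK3*-KO cells for number 1 (median log2 difference -0.18), 9 for number 2 (median -1.09) and 5 for number 3 (median -0.08), where the medians of all genes were -0.01, -0.03 and 0.00. At the median the transporters varied more between libraries of a genotype than all genes did. The median ratio of the highest to the lowest library was 1.75 in *ZK3*-WT and 2.92 in *ZK3*-KO cells for the 10 genes against 1.31 and 1.58 for all tested genes.

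The order of the 6 libraries was shared by many of the genes. *SLC3A2*, *SLC7A5*, *SLC1A4*, *SLC1A5* and *SLC6A9* all rose from *ZK3*-KO replicate 2 through *ZK3*-KO replicate 1 and *ZK3*-WT replicates 1, 2 and 3 to *ZK3*-KO replicate 3, which was highest in 28.8% of tested genes. The order of *SLC3A2* was found in 5 of the 10 genes in CPM, itself included, and in 2.76% of tested genes. In TPM it was found in 3 of the 10 (*SLC3A2*, *SLC7A5* and *SLC1A5*) and in 1.51% of tested genes. *ATF4* (chromosome 22, 39915700 to 39918688, forward strand) had this order in CPM as well, with 594, 653 and 736 CPM in *ZK3*-WT and 575, 403 and 1063 CPM in *ZK3*-KO libraries, but not in TPM. Its log2 fold change was 0.04 (SE 0.34, FDR 0.964 in edgeR's test). Leaving out *ZK3*-KO replicate 3 gave -0.43 (FDR 0.124). *ATF4* is controlled largely at translation, which these libraries do not measure. In this order *ZK3*-KO replicates 1 and 2 lay below and *ZK3*-KO replicate 3 above all *ZK3*-WT libraries.

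Stretches of promoter sequence are shown because several genes that share the order are known ATF4 targets. Promoter windows from 250 bases before to 50 bases after a start site (RefSeq, GRCh38.p14) were matched for 9 of the 10 genes, all but *SLC7A11*. They were searched on both strands for TGATGNAA, the core of the element bound by ATF4 together with C/EBP proteins, and for its form TGATGCAA, which is contained in it. The match stands in capitals within at most 11 bases on either side, written 5′ to 3′ along the gene, and the matches of *SLC1A4* and *SLC3A2* are the element read on the opposite strand.
*SLC1A4*, chr2:64989381-64989410, forward strand, first matched base at -7 from the start site: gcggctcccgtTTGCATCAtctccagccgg
*SLC3A2*, chr11:62881725-62881748, forward strand, at +37: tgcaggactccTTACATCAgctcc
*SLC1A5*, chr19:46784893-46784922, reverse strand, at -97: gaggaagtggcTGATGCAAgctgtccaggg
*SLC7A1*, chr13:29595663-29595692, reverse strand, at +7: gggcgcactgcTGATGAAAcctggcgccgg
*SLC38A1*, chr12:46266502-46266531, reverse strand, at -4: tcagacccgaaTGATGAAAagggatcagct
TGATGNAA was present for 5 of the 9 genes, in 5 of their 15 windows, against 4.46% of all 27305 genes and 3.62% of all windows. Among the 12525 tested genes with windows the shares were 2.98% of genes and 2.21% of windows. Many of the 10 genes were already known as ATF4 targets, and the difference in shares was not tested. TGATGCAA was present for *SLC1A4* and *SLC1A5*, against 1.08% of all genes and 0.743% of tested genes with windows. The sequence and the library order did not go together gene by gene. *SLC3A2*, *SLC1A4* and *SLC1A5* had both, *SLC7A5* and *SLC6A9* had the order in CPM without a match in these windows, and *SLC7A1* and *SLC38A1* had a match without the order. A match is a run of letters and no measurement of binding.

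Lists of related genes were set beside the transporters. Of 30 tested ATF4 targets outside the 10 genes (biosynthetic enzymes, tRNA synthetases and stress genes such as *ASNS*, *PSAT1* and *NUPR1*), 0 passed in edgeR's test with all libraries and 23 were below 0, with a median log2 fold change of -0.19. Without adjustment 1 had a p-value under 0.05 in edgeR's test, and DESeq2 called 0, against 18.4% and 8.2% of all tested genes. Without *ZK3*-KO replicate 3, 12 passed, all lower, with a median of -0.82. Of all genes tested in that fit, 15.1% passed and 7.73% passed as lower. The order of *SLC3A2* was found in 18 of the 30 in CPM and in 9 in TPM. Of 14 regulators of the amino acid response (eIF2 kinases and transcription factors such as *ATF4*, *DDIT3* and *CEBPG*), 0 passed with all libraries in edgeR's test, at a median of -0.23, and 0 had an unadjusted p-value under 0.05 or passed with DESeq2. Without *ZK3*-KO replicate 3, *DDIT3*, *CEBPB*, *CEBPG*, *TRIB3* and *PPP1R15A* passed, all lower, and 6 of the 14 had the order of *SLC3A2* in CPM. At the median, both lists were lowest in *ZK3*-KO replicate 2 and highest in *ZK3*-KO replicate 3. The 10 transporter genes were likewise lowest in *ZK3*-KO replicate 2, while their medians in *ZK3*-WT replicate 3 (0.27 against the *ZK3*-WT mean) and *ZK3*-KO replicate 3 (0.22) were close.

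The list of amino acid sensing genes of mTORC1 did not show that pattern. Of its 26 tested genes (Rag GTPases, Ragulator, GATOR and their sensors), 0 had the order of *SLC3A2*, and the median difference from the *ZK3*-WT mean lay between -0.08 and 0.13 in every library. The count of 0 depends on how the lists were drawn, since the sestrin gene *SESN2* was placed among the ATF4 targets. *SESN2* had the order of *SLC3A2* in CPM and in TPM. Its levels were 51.2, 92.2 and 126 CPM in *ZK3*-WT and 43.6, 20.8 and 211 CPM in *ZK3*-KO libraries. With all libraries edgeR's test called 0 of the 26, and 6 passed an unadjusted p of 0.05, as did 18.4% of all tested genes. With the replicate number as a block 1 passed, *SESN3*, a sestrin, at -1.16 (FDR 0.0432 in edgeR's test). DESeq2, which called 8.2% of all tested genes, called 1, *CASTOR1*, an arginine sensor, at -1.31 (FDR 0.00164), as did limma on log2(TPM + 1). Leaving out *ZK3*-KO replicate 3, edgeR's test called 2 of the 26, where 15.1% of all tested genes passed. They were *CASTOR1* at -1.57 (FDR 0.00951) and the sestrin gene *SESN1*, which was higher in *ZK3*-KO cells, at 0.89 (FDR 0.0113). *SESN2*, *SESN3*, *SESN1* and *CASTOR1* were named after their values were seen. The highest *ZK3*-KO library of a sensing gene exceeded its lowest 1.18-fold at the median, against 2.92-fold for the transporters.

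**Figure D4:**
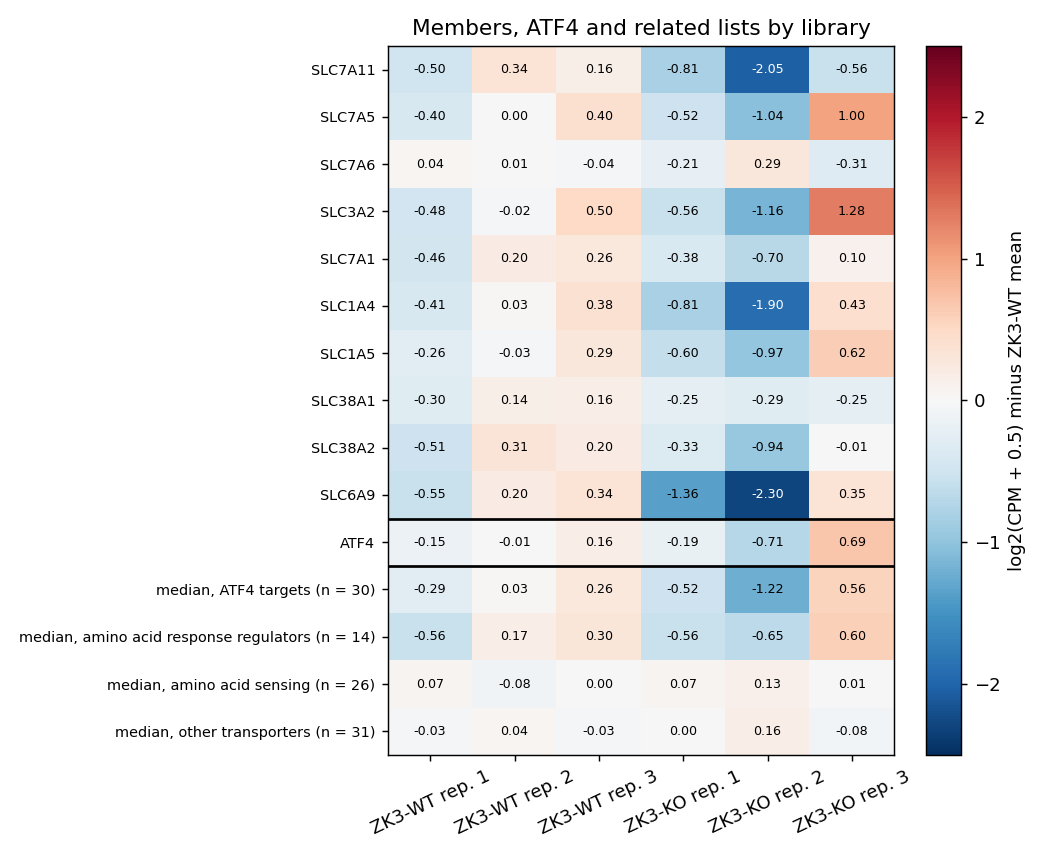
Log2(CPM + 0.5) of each of the 10 genes and *ATF4* minus its *ZK3*-WT mean, and below them the median of that difference over each list of related genes, by library (blue lower, red higher). The 10 genes have medians of -0.44, 0.09 and 0.27 in *ZK3*-WT and -0.54, -1.003 and 0.22 in *ZK3*-KO replicates 1, 2 and 3, beside -0.29, 0.03 and 0.26 and then -0.52, -1.22 and 0.56 for the ATF4 targets.

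Among 50 further amino acid transporter genes, 31 were tested, 18 of them above and 13 below 0, with a median log2 fold change of 0.12. The 19 others had at most 28 reads in any library and 8 had none. Only *SLC38A5* passed in edgeR's test with all libraries, 1 of 31 against 2.05% of tested genes. *SLC38A5* (NCBI Gene 92745, X chromosome, 48316920 to 48328648, reverse strand) encodes a transporter of glutamine and other neutral amino acids and is a relative of *SLC38A1* and *SLC38A2*. Its levels were 33.4, 30.7 and 38.6 CPM in *ZK3*-WT libraries and 0.823, 0.606 and 1.18 CPM in *ZK3*-KO libraries. These levels rest on 2100, 2153 and 2701 reads against 53, 42 and 73 reads. *ZK3*-KO libraries were thus far below *ZK3*-WT libraries without any overlap. The means were 34.2 ± 4.03 and 0.870 ± 0.291 CPM (SD, n = 3), and the log2 fold change was -5.30 (SE 0.29, FDR 0.000786 in edgeR's test). The gene passed in all 13 alternative fits, at -5.58 to -4.45 with an FDR of at most 0.0126, and it did not follow the library order of *SLC3A2*. Whether the difference goes with the edit or with the clone cannot be told apart.

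**Figure D5:**
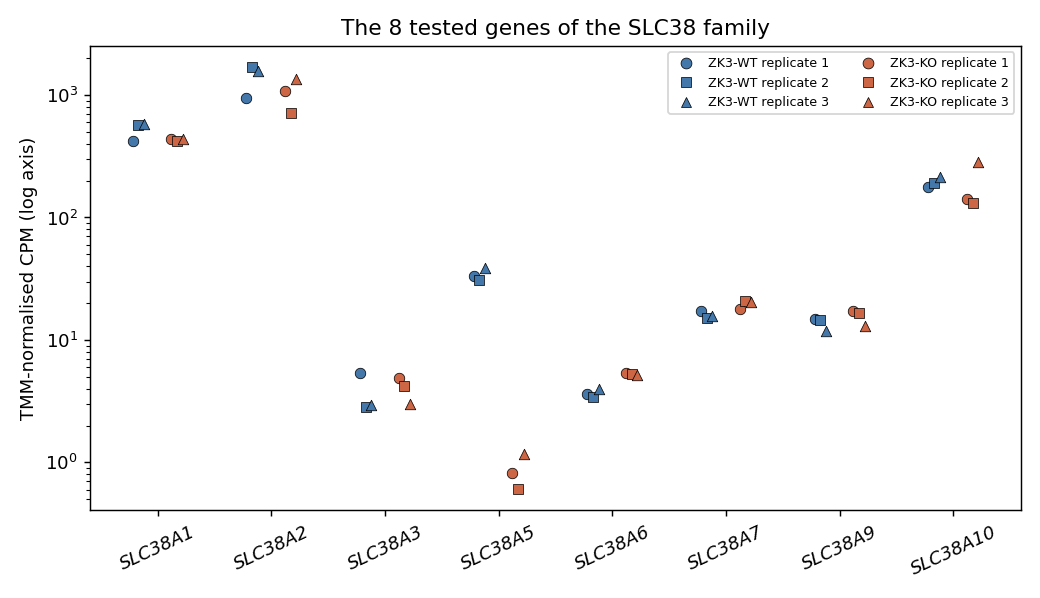
CPM (log axis) of the 8 tested genes of the SLC38 family in each library, *ZK3*-WT in blue and *ZK3*-KO in orange. *SLC38A5* lies at 30.7 to 38.6 CPM in *ZK3*-WT and at 0.606 to 1.18 CPM in *ZK3*-KO libraries, whereas *SLC38A1* and *SLC38A2* overlap between the genotypes.

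A pair of further transporter genes, named after their values were seen, came close to the threshold. *SLC6A6*, the taurine transporter gene, stood at 83.9, 92.4 and 78.8 CPM in *ZK3*-WT and at 53.1, 56.2 and 48.5 CPM in *ZK3*-KO cells (log2 fold change -0.69, SE 0.14, FDR 0.0552 in edgeR's test). It passed with upper-quartile factors (FDR 0.0463), without *ZK3*-KO replicate 3 (FDR 0.0184) and with DESeq2 (FDR 0.000736). *SLC25A44*, which encodes a mitochondrial carrier of branched-chain amino acids, stood at 29.7, 27.1 and 27.7 CPM in *ZK3*-WT and at 38.6, 48.2 and 44.4 CPM in *ZK3*-KO cells (0.63, FDR 0.0812 in edgeR's test). It passed without *ZK3*-KO replicate 3 (FDR 0.0243) and with DESeq2 (FDR 0.00385). Neither gene overlapped between the genotypes in CPM, as was the case for 26.6% of all tested genes. In TPM *SLC25A44* did overlap, with 14.1 TPM in *ZK3*-WT replicate 2 and 13.3 TPM in *ZK3*-KO replicate 3. A further 3 transporters passed in edgeR's test without *ZK3*-KO replicate 3, *SLC16A10* as higher (0.78, FDR 0.0232) and *SLC38A10* (-0.50, FDR 0.0410) and *SLC43A1* (-1.13, FDR 0.0415) as lower. In all, 6 of the 31 further transporters passed in that fit, where 15.1% of all tested genes passed.

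Levels can be compared between genes in TPM. In *ZK3*-WT cells the order was *SLC7A5* (649 ± 177 TPM), *SLC38A2* (621 ± 184), *SLC3A2* (542 ± 186), *SLC1A5* (306 ± 59.1), *SLC38A1* (139 ± 24.9), *SLC7A1* (109.7 ± 28.8), *SLC7A11* (71.1 ± 21.2), *SLC7A6* (21.6 ± 0.403), *SLC6A9* (21.1 ± 6.64) and *SLC1A4* (15.2 ± 4.13 TPM, SD, n = 3). Neighbours in this order were separated without overlap of their *ZK3*-WT libraries only between *SLC1A5* and *SLC38A1* and between *SLC7A11* and *SLC7A6*. In *ZK3*-KO cells the order was the same except that *SLC3A2* (526 ± 431 TPM) stood before *SLC38A2* (416 ± 94.6 TPM). *SLC7A11* stood at 30.7 ± 12.5 TPM there. By CPM the 10 genes lay between the 58.7th and the 99.7th percentile of tested genes.

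The genes most like *SLC7A11* and *SLC3A2* were sought by Pearson correlation of log2 CPM over the 6 libraries among 13139 genes whose average log2 CPM reached at least 1. Closest to *SLC7A11* were *ZCCHC7* (r = 0.995), *EPN2* (r = 0.995) and *ALDH1L2* (r = 0.993), the last a mitochondrial folate enzyme from the list of ATF4 targets. Closest to *SLC3A2* were *GOT1*, the cytosolic aspartate aminotransferase (r = 0.999), *BUD31* (r = 0.998) and *TOM1L1* (r = 0.998). Such values were common, since 334 genes exceeded 0.9 with *SLC7A11* and 983 with *SLC3A2*, and all of them rest on the same 6 libraries. *ALDH1L2* had 16.3, 27.8 and 28.5 CPM in *ZK3*-WT and 10.8, 3.94 and 15.6 CPM in *ZK3*-KO cells. *GOT1* had 176, 241 and 337 CPM in *ZK3*-WT and 167, 107 and 555 CPM in *ZK3*-KO cells. The others varied less, since a correlation does not measure the size of a change. Over the 6 libraries *ZCCHC7* ranged from 29.8 to 45.0, *EPN2* from 58.5 to 81.2, *BUD31* from 40.2 to 96.1 and *TOM1L1* from 54.7 to 89.1 CPM.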

How the data were processed

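RNA of 3 *ZK3*-WT and 3 *ZK3*-KO libraries was sequenced as paired 150 bp reads from stranded poly(A) libraries. The authors deposited counts of reads per gene without normalization, together with TPM values, which the authors scaled by transcript length and depth, and FPKM values, which were not used. The methods name an Ensembl annotation of hg19 and Bowtie 2 (version 2.2.5 in the submitters' processing notes), whereas the table lists NCBI Gene identifiers. The count test was run with edgeR 4.0.16 in R 4.3.3 (filterByExpr, TMM, quasi-likelihood test, all 6 libraries, Benjamini-Hochberg adjustment over 18366 genes, FDR threshold 0.05). The CPM values are TMM-normalised. Light to heavy chain ratios were compared by exact permutation. Alternatives were library totals, upper-quartile factors, no filter, at least 10 reads in every library, DESeq2 1.42.0, limma 3.58.1 on log2(TPM + 1), a replicate block and each library left out. Deviations of libraries with the same replicate number correlated across genes at 0.294, 0.112 and 0.449, so the numbers were treated as pairing in the block fit. Libraries with different numbers correlated at -0.343 to 0.209. The highest of these, *ZK3*-WT replicate 1 with *ZK3*-KO replicate 2, exceeded the 0.112 of the libraries numbered 2. The sources used here do not say what the numbers mark, and p-values measure the spread between these libraries. Chi-square per degree of freedom between replicates was 41.5 or more, so no library was a copy of another. The members and lists were chosen with earlier results of these data known. The genes named are the 10 members, *ZKSCAN3*, *ATF4*, list genes past the threshold with all libraries and the 3 genes most correlated with *SLC7A11* and with *SLC3A2*. Other genes of the lists and markers, overlapping genes and pseudogenes were named outside this rule, after their values were seen. Gene coordinates are from a GRCh37 annotation. The scripts were tested on simulated counts.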

Additional observations from a re-analysis of the deposited data

How the results depend on the processing

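Of all tested genes, 376 passed with all libraries, 1506 with DESeq2 and 49 to 2858 when 1 library was left out, the highest number without *ZK3*-KO replicate 3, which kept all 376. The number of the 10 transporter genes called was 0 in every other fit and 0 to 4 when 1 library was left out. Of the further transporters 1 passed, 2 with upper-quartile factors, 3 with DESeq2 and 1 to 6 without 1 library. The amino acid response regulators gave 0 to 5, the ATF4 targets 0 to 12 and the sensing genes 0 to 2 calls when 1 library was left out, and the sensing genes gave 1 with the replicate block, 1 with DESeq2 and 1 with limma on log2(TPM + 1). With the replicate block 461 genes passed, and the block changed no other call given here. The sign of some log2 fold changes turned. That of *SLC7A5* was -0.068 with library totals, -0.18 with the replicate block, -0.32 on log2(TPM + 1) and -0.79 to 0.40 without 1 library. That of *SLC3A2* was -0.15 with the block, -0.30 on log2(TPM + 1) and -0.89 to 0.58 without 1 library. That of *ATF4* was -0.064 with library totals, -0.070 with the block and -0.43 to 0.31 without 1 library. Leaving out 1 library gave -0.27 to 0.067 for *SLC7A6*, -0.79 to 0.12 for *SLC1A5* and -0.29 to 0.086 for *ZKSCAN3*. It gave log2 ratio differences to *SLC3A2* of -1.34 to -0.52 for *SLC7A11*, of -0.13 to 0.12 for *SLC7A5* and of -0.65 to 0.93 for *SLC7A6*. The cause was not tested. *SLC7A11*, *SLC7A1*, *SLC1A4*, *SLC38A1*, *SLC38A2* and *SLC6A9* stayed below 0 in all 13 alternatives, but their sizes moved. Without *ZK3*-KO replicate 2 they were -0.72 for *SLC7A11*, -0.15 for *SLC7A1*, -0.099 for *SLC1A4*, -0.21 for *SLC38A2* and -0.32 for *SLC6A9*, and without *ZK3*-KO replicate 3 they were -1.34, -0.56, -1.32, -0.65 and -1.87. Without 1 library *SLC38A1* ranged from -0.42 to -0.20. The 10 genes had at least 380 reads in every library.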
